A study of Homo sapiens with 6 samples.

Results

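The genes described here carry names given to long noncoding RNAs, antisense RNAs and uncharacterised transcripts in the gene-level expression table of 3 human bladder cancer cell lines treated with the histone deacetylase inhibitor quisinostat. They were found by name. A row was taken when its gene name began with LINC or SNHG and a number, ended in -AS and a number, had the form of a sequenced genomic clone (AC, AL, AP or AF, 6 digits, a dot and a number), or was MALAT1, NEAT1, GAS5, H19, TUG1, DANCR or OIP5-AS1. A further name of the list, EPB41L4A-AS1, had no row. Of 335 rows with such a name, 71 lay at loci that StringTie had assembled together with another named gene, among them SNHG3 with RCC1, and were left out. The remaining 264 genes, of 10066 assembled loci in all, were 174 clone-named genes, 39 antisense-named genes, 34 LINC genes, 11 SNHG genes and 6 genes with names of their own.

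The cells were RT4 and RT112, which carry an FGFR3-TACC3 fusion, and SW780, whose label gives an FGFR3-BAIBP2L1 fusion. Each line was kept for 2 days with DMSO or with quisinostat, at 50 nM for RT4, 10 nM for RT112 and 25 nM for SW780, and gave 1 library per treatment, 6 in all. Dose, culture medium and cell line changed together, each established line stands for 1 tumour, and a difference within a line has no replicate check. Values are FPKM, fragments scaled to transcript length and library size, from polyadenylated RNA.

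Long noncoding RNAs are transcribed and often spliced like messenger RNAs but are not known to be translated. Some act in the nucleus, as NEAT1 does as the scaffold of paraspeckles, while others, the small nucleolar RNA (snoRNA) host genes, carry snoRNAs in their introns, which guide modification of ribosomal RNA. Antisense RNAs are read from the strand opposite another gene and may share its promoter region. Histone deacetylases remove acetyl groups from histones, and their inhibition can open chromatin at silent genes as well as lower the expression of active ones.

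A name of this kind did not always mark a noncoding RNA. In GENCODE 29 on GRCh38, 245 of the 264 names (92.8%) matched a single gene. Of these, 186 were annotated as long noncoding RNA and 55 as pseudogenes, of which 52 had clone names. The other 4, AC008770.1, AC003002.1, AC093323.1 and NCBP2-AS2, were annotated as protein-coding. RefSeq now gives LINC00116, LINC00675 and LINC00959 protein-coding names as well (MTLN, TMEM238L and C10orf143), which were chosen here after their annotation was seen. The long noncoding RNAs and the pseudogenes are therefore given apart below. Of the longest transcripts, 41 of the 186 long noncoding RNAs and 42 of the 55 pseudogenes had a single exon.

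Expression of these genes was low. The median over genes of the mean FPKM of the 6 libraries was 3.01, against 7.60 for the other loci, and it was 2.51 for the long noncoding RNAs and 4.74 for the pseudogenes. Of the 264 genes, 239 had a mean of at least 1 FPKM, 35 had a mean of at least 10, and 229 were above 0 in all 6 libraries. Together they held 0.882% of the summed FPKM in the RT4 DMSO library and 0.748% in the quisinostat library. The shares were 0.880% and 0.770% in RT112 cells, and 0.902% and 0.830% in SW780 cells. The direction in SW780 cells was set by AC011603.2, the most abundant of these genes. Without it the SW780 share was 0.756% with DMSO and 0.785% with quisinostat, while it was still lower with quisinostat in RT4 (0.746% and 0.619%) and RT112 cells (0.810% and 0.687%). The reads of AC011603.2 are uncertain, as described below. In bulk RNA, fewer cells that make a transcript and less of it per cell cannot be told apart. The epithelial identity of the lines was checked with 15 epithelial and urothelial markers, and all 15 had a locus. UPK3A was at 0 in both RT112 libraries. KRT5, whose locus also holds KRT6A, was at 0.0433 and 0.00976 FPKM in RT4 cells. The summed level was 1795 FPKM with DMSO and 1025 with quisinostat in RT4 cells. It was 1178 and 1745 in RT112 cells, and 1697 and 1056 in SW780 cells. Single markers went both ways. Of the 14 above 0 in all libraries, 4 were higher with quisinostat in RT4, 11 in RT112 and 4 in the SW780 line. The part of these shifts in the values below was not tested. Of 10 markers of immune, stromal, endothelial and muscle cells, the table held only COL1A1, a collagen gene of stromal cells. It was higher with quisinostat in each line, at 0.0342 and 0.474 FPKM in RT4, 0.173 and 1.45 in RT112, and 0.0558 and 0.504 in the SW780 line, and its part in the values below was not tested.

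With the 3 cell lines as replicates, the response to quisinostat did not pass the test for any of these genes. With limma on log2(FPKM + 1) and cell line as a block, 0 of the 239 genes tested had an adjusted p under 0.05, as for all loci (0.0% of 9430). The smallest adjusted p of a member was 0.257, for AL390198.1. At an unadjusted p under 0.05, limma gave 18 genes higher with quisinostat (7.53%, against 9.68% of all loci) and 12 lower (5.02%, against 4.16%). Quantile normalization lowered the median log2 fold change of all loci from 0.04 to -0.05. It turned this split into 11 higher and 23 lower, and that of all loci from 913 and 392 into 638 and 570. Leaving out SW780 left 3 higher and 5 lower (431 and 85 of all loci). Leaving out RT4 left 12 and 4 (552 and 273 of all loci). In what follows, values in single libraries and the count of lines are therefore descriptions.

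Large ratios were frequent, mainly in RT4 cells. For the 229 genes above 0 in all libraries, the log2 ratio of FPKM in quisinostat over DMSO was above 1 for 59 genes in RT4 cells (25.8%, against 18.0% of all loci) and below -1 for 36 (15.7%, against 14.1%). In RT112 cells, 33 genes were above 1 (14.4%, against 13.8%) and 19 were below -1 (8.30%, against 3.6%). In SW780 cells, 31 were above 1 (13.5%, against 10.5%) and 21 were below -1 (9.17%, against 7.35%). A level near 1 FPKM rests on few reads, whose number is unknown here. The log2 ratio was above 0.3 in all 3 lines for 27 genes (11.8%, against 11.4% of all loci) and below -0.3 in all 3 lines for 17 (7.42%, against 4.99%). At a limit of 1, 9 genes were above it in all 3 lines (3.93%, against 3.0%) and 1 gene, AL391427.1, was below -1 in all 3 (0.437%, against 0.285%).

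The median ratio of the pseudogenes was negative in each line, and that of the long noncoding RNAs was not. The median log2 ratio of 154 long noncoding RNAs was 0.26 in RT4, 0.05 in RT112 and 0.11 in the SW780 line, beside 0.08, 0.06 and 0.04 over all loci. Once centred on the median of all loci, the RT112 value was -0.01. The median of 55 pseudogenes was -0.34, -0.29 and -0.10 in the same order, and it stayed negative in each line after centring and after correction for GC content. The 27 genes above 0.3 in all 3 lines were 24 of the 154 long noncoding RNAs and 3 of the 55 pseudogenes, beside 11.4% of all loci. The 17 below -0.3 in all 3 lines were 8 of the 154, 6 of the 55 and 3 of 16 genes with no match, beside 4.99% of all loci. Among the named classes, the median of 19 LINC genes was 0.53 in RT4, 0.11 in RT112 and 0.50 in the SW780 line, and that of 35 antisense-named genes was 0.35, 0.16 and 0.26. The 11 SNHG genes had medians of -0.82, -0.34 and -0.13. Over all loci the log2 ratio followed transcript GC content with opposite signs in different lines (Spearman's rho across genes -0.48 in RT4, 0.44 in RT112 and -0.21 in the SW780 line), and over 213 of the 229 genes the values were -0.25, 0.03 and -0.17. The part of GC content in the single values was not tested beyond the correction.

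**Figure D1:**
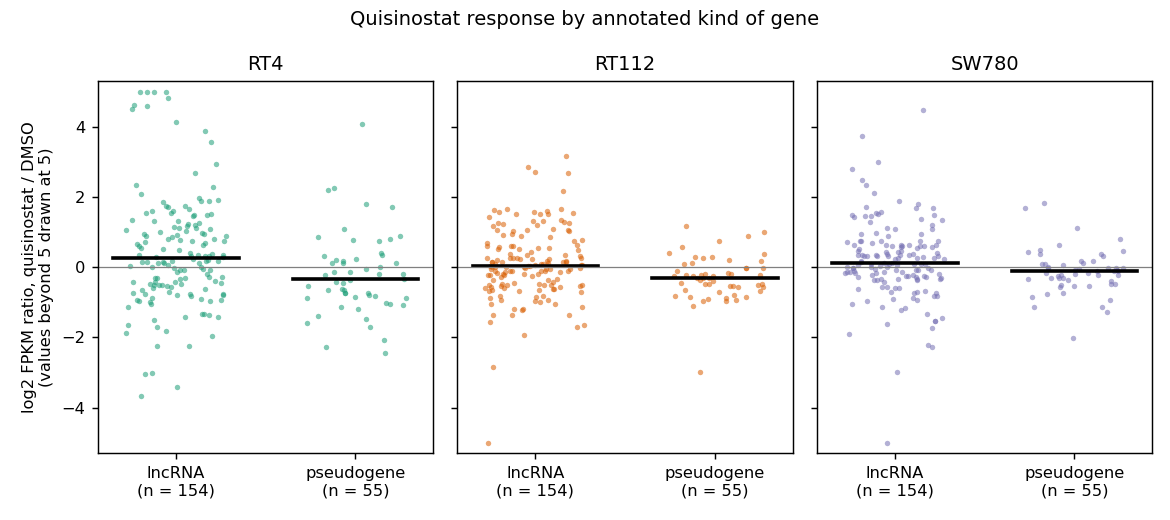
Log2 FPKM ratio of quisinostat over DMSO (y axis) for genes annotated as long noncoding RNA (154) or pseudogene (55) in each cell line. Each point is 1 gene, the bar is the median, and points beyond 5 are drawn at 5. The bar of the pseudogenes lies below 0 in each line, while that of the long noncoding RNAs lies above 0 and is close to it in RT112 cells (-0.01 there once centred on all loci).

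The snoRNA host genes were 16 genes with a mean of 3.15 to 88.4 FPKM. They were the 11 SNHG genes, GAS5 and DANCR, and LRRC75A-AS1, LINC02001 and LINC00888, which RefSeq now names SNHG29, SNHG30 and SNHG33. Several host genes are known to begin with a tract of pyrimidines, as messenger RNAs of ribosomal proteins do. In RefSeq windows, a tract was a C followed by at least 4 further bases that were each C or T. It had to lie wholly within 5 bases before to 10 bases after the annotated start, on the gene's own strand. A longer tract was cut at the last base searched. Such a tract stood in 8 of the 12 host genes with a window and in 17 of all 56 members with one. It stood in 21.1% of 35116 promoter windows of that length. At the RefSeq start of SNHG1 and GAS5 the search found no tract. Their windows and those of 4 host genes with a tract, in capitals, are shown because these genes carry the values that follow. Each runs from 40 bases before to 20 bases after the annotated start on GRCh38.p14. SNHG5 is at chr6:85678714-85678773, minus strand. SNHG8 is at chr4:118278722-118278781, plus strand. SNHG16 is at chr17:76557724-76557783, plus strand. SNHG19 is at chr16:2155339-2155398, minus strand. SNHG1 is at chr11:62855866-62855925, minus strand. GAS5 is at chr1:173869026-173869085, minus strand. In GENCODE, GAS5 starts at 173868882, downstream of this window, so the search did not cover that start. The GENCODE start of SNHG1, at 62855914, lies inside its window but upstream of the bases searched. Whether GAS5 or SNHG1 has a tract at its GENCODE start was not tested.
SNHG5: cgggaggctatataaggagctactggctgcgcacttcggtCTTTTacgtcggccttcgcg
SNHG8: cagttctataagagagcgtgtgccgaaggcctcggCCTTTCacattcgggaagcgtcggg
SNHG16: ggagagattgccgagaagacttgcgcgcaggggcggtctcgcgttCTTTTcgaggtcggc
SNHG19: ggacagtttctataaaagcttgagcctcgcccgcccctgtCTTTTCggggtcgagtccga
SNHG1: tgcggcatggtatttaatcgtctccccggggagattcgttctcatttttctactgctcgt
GAS5: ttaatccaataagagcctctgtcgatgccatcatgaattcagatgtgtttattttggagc

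With quisinostat, 14 of the 16 host genes had lower FPKM in RT4 cells (46.5% of all loci did), 11 in RT112 cells (46.4% of all loci) and 8 in SW780 cells (47.6% of all loci), so that the SW780 count was at the background. Their median log2 ratio was -0.72, -0.34 and 0.01 in that order. The 11 SNHG genes were all lower in RT4 cells, also after centring and after GC correction. SNHG1, the host of a cluster of C/D box snoRNAs, had 22.7 FPKM with DMSO and 15.5 with quisinostat in RT4 cells, 25.4 and 14.5 in RT112 cells, and 21.1 and 13.1 in SW780 cells. Its 3 quisinostat libraries lay below its 3 DMSO libraries, but the share of all loci with such a separation was not computed. The log2 fold change by limma was -0.65 ± 0.18 (SE) with an adjusted p of 0.307. SNHG15 had 6.22 and 1.59 FPKM in RT4 cells, 4.55 and 2.22 in RT112 cells, and 6.18 and 3.50 in SW780 cells. Its log2 fold change by limma was -0.98 ± 0.28 (SE) with an adjusted p of 0.307. These were the 2 of 16 host genes below -0.3 in all 3 lines (4.99% of all loci were).

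GAS5, DANCR, SNHG5 and LRRC75A-AS1 were lower in RT4 and RT112 cells, with SW780 ratios between -0.14 and 0.11. GAS5, named for growth arrest and a carrier of many snoRNAs, had 27.3 FPKM with DMSO and 12.5 with quisinostat in RT4 cells, and 62.2 and 40.8 in RT112 cells. In SW780 cells it had 19.7 and 21.3. DANCR, which hosts a snoRNA, had 48.5 FPKM with DMSO and 33.2 with quisinostat in RT4 cells, 54.7 and 34.4 in RT112 cells, and 28.3 and 27.0 in SW780 cells. SNHG5 had 117 and 85.0 FPKM in RT4 cells, 51.5 and 32.8 in RT112 cells, and 33.7 and 35.9 in SW780 cells. The 2 RT4 libraries were the highest for SNHG5, which was the only SNHG gene to pass the test between cell lines (adjusted p = 0.0487, limma F-test). LRRC75A-AS1 had the highest level of the host genes, with 79.0 and 41.5 FPKM in RT4, 156 and 123 in RT112, and 68.7 and 62.5 in the SW780 line. SNHG8 showed log2 ratios of -0.95, -0.34 and 0.33, in the order RT4, RT112 and SW780.

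Further host genes differed in a single line or went opposite ways. SNHG19 had 4.53 FPKM with DMSO and 0.565 with quisinostat in RT4 cells, a log2 ratio of -3.0, while its ratios in RT112 and SW780 cells were 0.03 and -0.13. SNHG9, which lies within 1 kb of the ribosomal protein gene RPS2 and is read from the opposite strand, had ratios of -1.65, -0.23 and -1.22, beside -1.91, 0.21 and -0.73 for RPS2. After GC correction the ratios of SNHG9 were -0.15, -1.27 and -0.77, so its lowest line changed from RT4 to RT112. SNHG17 had 12.9 and 3.38 FPKM in RT112 cells, but 0.140 and 0.394 in SW780 cells. SNHG7 had 5.75 and 1.58 FPKM in RT4 cells and 4.35 and 6.28 in RT112 cells, and its RT112 ratio of 0.53 became -0.47 after GC correction. SNHG16 had ratios of 0.00, -0.87 and 0.33, SNHG6 of -0.51, 0.08 and -0.23, and SNHG18 of -0.62, 0.24 and 0.55. LINC02001, with ratios of 1.18, -0.11 and 0.75, was the host gene highest above its DMSO level in RT4 cells. The snoRNP proteins, which bind snoRNAs, were all found in the table. Of these 10, 9 were lower in RT4, 8 in RT112 and 7 in the SW780 line (46.4% to 47.6% of all loci were), and none passed an adjusted p of 0.05. At an unadjusted p under 0.05, 4 of them were lower and 0 higher by limma, beside 4.16% and 9.68% of all loci.

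**Figure D2:**
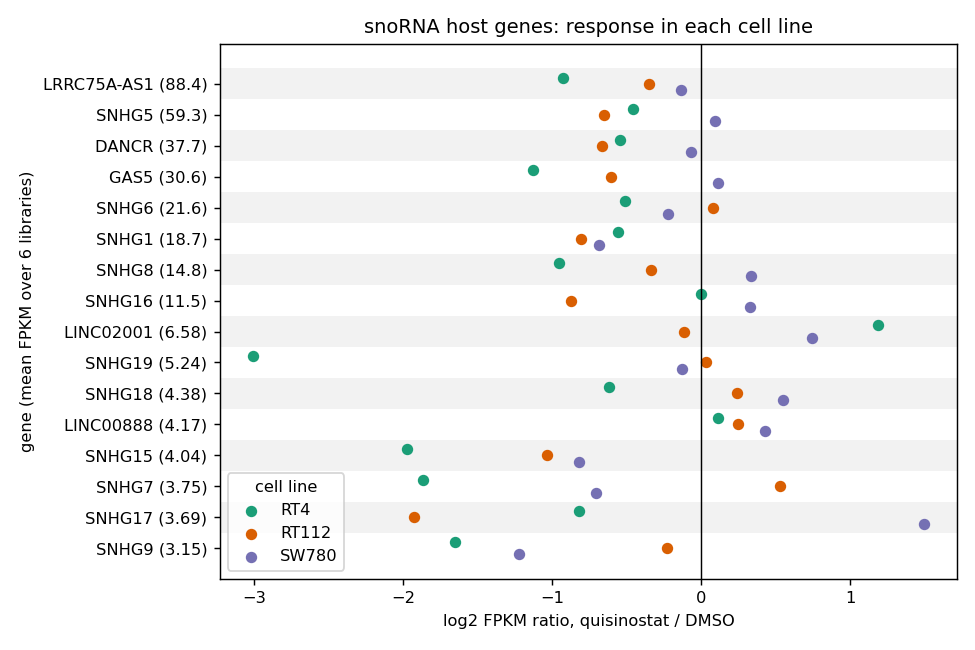
Log2 FPKM ratio of quisinostat over DMSO (x axis) of the 16 snoRNA host genes in RT4, RT112 and SW780 cells, ordered by mean FPKM (in parentheses). Each point is 1 pair of libraries. Most RT4 points lie left of 0, and the 3 points of SNHG1 lie close together.

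NEAT1 and MALAT1, 2 neighbouring nuclear RNAs on chromosome 11 that are very abundant in many cells, were low in these polyadenylated libraries. NEAT1 had 3.25 FPKM with DMSO and 9.03 with quisinostat in RT4 cells, 3.38 and 4.28 in RT112 cells, and 3.39 and 3.23 in SW780 cells. Its RT4 quisinostat library stood apart, and the other 5 lay between 3.23 and 4.28. The log2 fold change by limma was 0.48 ± 0.32 (SE) with an adjusted p of 0.512. MALAT1 had 5.38 and 7.01 FPKM in RT4 cells, 3.44 and 3.22 in RT112 cells, and 3.21 and 1.92 in SW780 cells, with a log2 fold change of -0.09 ± 0.27 (SE) and an adjusted p of 0.902 by limma. Its groups overlapped. Of 12 paraspeckle proteins, 11 were lower in RT4, 9 in RT112 and 11 in the SW780 line, also beside 46.4% to 47.6% of all loci. None passed an adjusted p of 0.05, and NUDT21, a subunit of a cleavage factor that acts in polyadenylation, was the one below -0.3 in all 3 lines (-0.61, -0.64 and -0.71). TUG1, a widely expressed RNA that starts beside MORC2, lay between 23.6 and 29.2 FPKM in all 6 libraries. OIP5-AS1 lay between 6.36 and 14.9 FPKM, and its log2 ratios were 0.02, -0.19 and -0.16, with -0.41 in RT4 cells after GC correction.

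Further RNA-processing lists that bear on noncoding RNA levels were read in the same way. Of 15 nonsense-mediated decay factors, which remove RNAs with early stop codons, 13 were found. Of these, 8 were lower in RT4, 7 in RT112 and 10 in the SW780 line (46.4% to 47.6% of all loci were). Below -0.3 in all 3 lines were 2 of them (4.99% of all loci). Of 18 names of the nuclear exosome, which degrades RNA in the nucleus, and its cofactors, 17 were found. Lower in the same order of lines were 9, 14 and 9 of these, and 0 were beyond 0.3 in all 3 lines in either direction. No gene of these lists passed an adjusted p of 0.05 in limma. At an unadjusted p under 0.05, limma gave 1 decay factor lower, and 0 exosome genes higher or lower. Of all loci, 4.16% were lower and 9.68% higher. Of 5 genes often raised by histone deacetylase inhibition, GSN, an actin-severing protein, was the one above 0.3 in all 3 lines (0.93, 2.79 and 1.5). Its level in SW780 cells was low, at 0.130 FPKM with DMSO and 0.367 with quisinostat. CDKN1A, the cell cycle inhibitor p21, had 0.12, 1.36 and 0.52. The other 3 were negative in SW780 cells, with 1.08, 0.45 and -0.04 for the linker histone gene H1F0, 0.09, 2.62 and -0.32 for CLU, a secreted chaperone, and -1.90, 0.54 and -0.61 for TUBB3, whose locus also holds TCF25.

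The 8 genes with the highest weakest ratio were all annotated as long noncoding RNA, and each had under 5 FPKM with DMSO in every line. LINC02542 had 0.0606 FPKM with DMSO and 1.07 with quisinostat in RT4 cells, 0.471 and 1.48 in RT112 cells, and 0.595 and 3.02 in SW780 cells. LINC01116, which lies near the HOXD cluster on chromosome 2, had 2.47 and 8.30 FPKM in RT4, 0.412 and 1.26 in RT112, and 1.56 and 5.07 in the SW780 line. Its log2 ratios of 1.75, 1.61 and 1.70 were nearly the same in the 3 lines, although its level differed between them. The log2 fold change by limma was 1.12 ± 0.29 (SE) with an adjusted p of 0.290. PRR34-AS1, the host transcript of let-7 microRNAs on chromosome 22 (MIRLET7BHG in RefSeq), had 0.0387 and 0.295 FPKM in RT4, 0.246 and 0.757 in RT112, and 4.67 and 13.8 in the SW780 line. The SW780 libraries were far above the others, and the cell line term passed the test (adjusted p = 0.0346, limma F-test).

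AL390198.1, which had the smallest p of the whole set, had 1.22 and 5.16 FPKM in RT4 cells, 1.35 and 3.07 in RT112 cells, and 4.75 and 12.0 in SW780 cells. It starts within 1 kb of ZNF337 on the other strand, and its log2 fold change by limma was 1.146 ± 0.26 (SE). AL391422.3 had log2 ratios of 1.60, 1.57 and 1.51, the narrowest spread of the 8. AC084033.3, which overlaps ATP23 on the opposite strand, had ratios of 1.85, 1.35 and 1.29, beside 0.60, -0.27 and 0.10 for ATP23. LINC01819 had ratios of 1.61, 1.67 and 1.42, but in RT4 cells it stood at 0.0461 and 0.140 FPKM. LINC01137, near the immune regulator ZC3H12A, had ratios of 1.08, 1.55 and 1.46.

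The 8 genes with the lowest weakest ratio held SNHG1 and SNHG15, described above, and 6 clone-named genes. AL391427.1 (chr10:4995488-4997380, plus strand) overlaps AKR1C2, an aldo-keto reductase that acts on steroids, on the opposite strand. It had 2.18 FPKM with DMSO and 0.822 with quisinostat in RT4 cells, 1.36 and 0.534 in RT112 cells, and 4.29 and 1.16 in SW780 cells. Its log2 ratios of -1.41, -1.35 and -1.89 stood beside -0.11, -1.19 and -1.39 for AKR1C2. AC022400.7, which starts within 1 kb of SEC24C on the other strand, had ratios of -1.80, -0.98 and -1.13. AL354798.1, a pseudogene of PARP4, had ratios of -1.02, -1.10 and -0.53, beside -0.91, -0.59 and -0.58 for PARP4. AL109614.1, inside BLCAP and on its strand, had -0.60, -0.68 and -0.58. The pseudogene AL589880.1 had -0.79, -0.67 and -0.51, and AC015922.4, which had no match in GENCODE 29, had -1.27, -0.65 and -0.49. The adjusted p of these 6 genes in limma lay between 0.319 and 0.413.

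**Figure D3:**
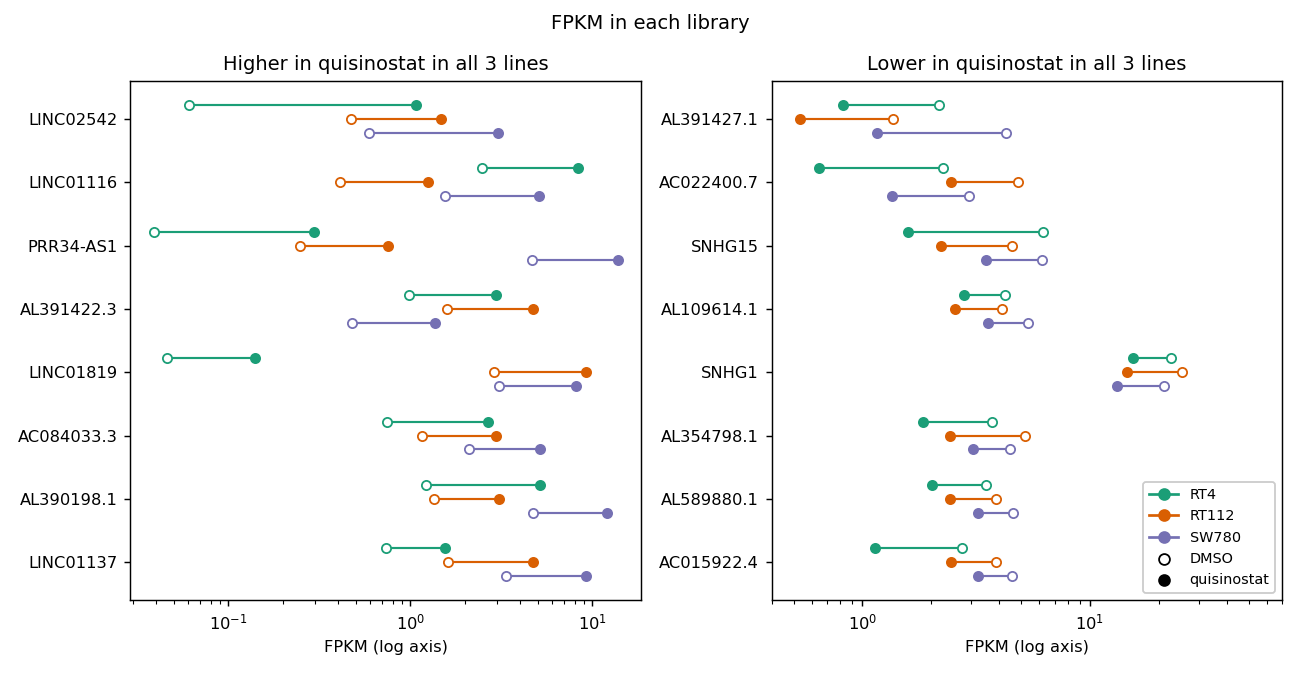
FPKM on a log axis in each library for the 8 genes with the highest (left) and the 8 with the lowest (right) weakest log2 ratio. Open circles are DMSO and filled circles quisinostat, joined within RT4, RT112 and SW780 cells. Several genes on the left lie below 1 FPKM with DMSO, and SNHG1 is the most abundant gene on the right.

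Several of the most abundant clone-named genes shared their sequence or their place with strongly expressed protein-coding genes, so that the reads assigned to them are uncertain. AC026403.1 is annotated as a processed pseudogene and matches RPLP0, a ribosomal stalk protein, and AC034236.1 and AC016596.1 are processed pseudogenes that match RPS25 and RPL41. The middle 60 bases of each copy are shown with the best ungapped window of the coding sequence of its source gene in GENCODE 29, to show how few bases tell a copy from its source. Capitals mark a mismatch, and substitutions are given from the source gene to the copy, counted from 1 at the 5′ end of the window. AC026403.1 (chr5:166382422-166382481, plus strand) differs from RPLP0 by T12C, and AC034236.1 (chr5:116052074-116052133, minus strand) from RPS25 by T14C. The window of AC016596.1 (chr5:55944665-55944724, plus strand) has 0 mismatches to RPL41, and it is printed once.
AC026403.1: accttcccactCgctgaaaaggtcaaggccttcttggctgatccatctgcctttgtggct
RPLP0: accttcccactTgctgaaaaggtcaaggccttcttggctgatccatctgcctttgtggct
AC034236.1: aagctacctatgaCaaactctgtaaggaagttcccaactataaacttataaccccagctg
RPS25: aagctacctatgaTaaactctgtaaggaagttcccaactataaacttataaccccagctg
AC016596.1: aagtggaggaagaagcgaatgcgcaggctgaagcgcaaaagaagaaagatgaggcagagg

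In all, 40 pseudogenes matched a protein-coding transcript with at least 95% identity over at least 50% of their length. For 35 of them the source gene had a locus of its own above 0 in all libraries, and in 34 of these 35 pairs the source gene had the higher mean FPKM. The copy and its source gene had log2 ratios of the same sign in 29 pairs in RT4, 27 in RT112 and 26 in the SW780 line. Spearman's rho over the 35 pairs was 0.74, 0.43 and 0.59. Both genes of a pair were measured in the same libraries, and some pairs share a source gene. The share of same signs among unrelated loci was not computed. Of the 40 copies, 30 had a negative ratio in RT4, 31 in RT112 and 28 in the SW780 line. AC026403.1 had 145 and 55.1 FPKM in RT4, 77.2 and 76.1 in RT112, and 44.6 and 27.0 in the SW780 line. Its log2 ratios of -1.39, -0.02 and -0.72 stood beside -0.94, -0.03 and -0.50 for RPLP0. AC016596.1 had ratios of -0.72, -0.46 and 0.01, beside -0.48, -0.31 and -0.10 for RPL41. AC034236.1 differed more from its source, with -1.13, -0.22 and -0.31 beside -0.07, -0.50 and 0.06 for RPS25. Of the 40 copies, 19 were of genes of ribosomal proteins named RPL or RPS, and their median log2 ratios were -0.75, -0.32 and -0.17. The ratio was negative in all 3 lines for 14 of the 19, and for 16.6% of all loci.

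**Figure D4:**
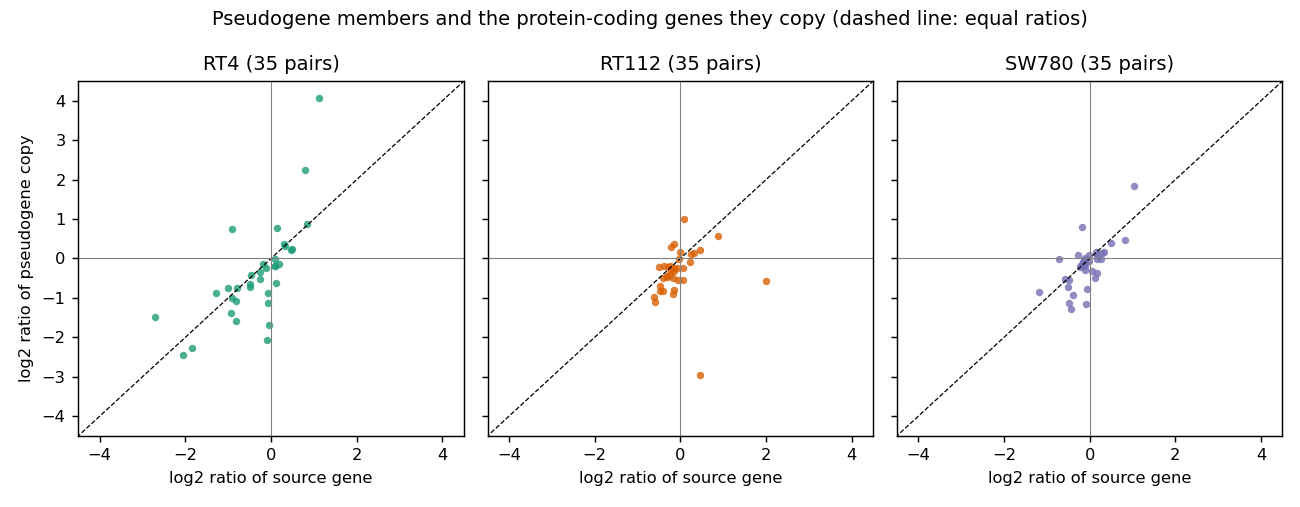
Log2 FPKM ratio (quisinostat over DMSO) of 35 pseudogene copies (y axis) against that of the protein-coding gene each copies (x axis), in each cell line. The dashed line marks equal ratios. Most points lie along it near the origin, with the widest range in RT4 cells.

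Genes on the strand opposite an abundant gene are uncertain in another way, since the library kit marks strand but the strand setting of the read assignment is not given in the sources used here. AC011603.2 (chr12:49127782-49147869, plus strand) had the highest mean of all these genes. It had 361 and 326 FPKM in RT4, 180 and 215 in RT112, and 355 and 107 in the SW780 line, so only the SW780 quisinostat library was low. It overlaps the tubulin gene TUBA1B (chr12:49127782-49131397, minus strand), whose locus, assembled with TUBA1A, had 353 and 363, 290 and 262, and 296 and 274 FPKM. AC006064.4 (chr12:6537794-6538370, minus strand) lies opposite the end of GAPDH, a glycolytic enzyme with a mean of 1202 FPKM. It had 151 and 32.1 FPKM in RT4, 41.2 and 45.8 in RT112, and 46.5 and 15.2 in the SW780 line. Its log2 ratios of -2.23, 0.15 and -1.61 stood beside -1.03, -0.45 and -0.95 for GAPDH, and the RT112 ratio of AC006064.4 was -0.19 after GC correction. Without RT112, AC006064.4 passed the test (log2 fold change of -1.88 ± 0.26 (SE), adjusted p = 0.0472, limma), and with all 3 lines it did not (adjusted p = 0.344). Among the other most abundant genes, AC026366.1 had no match in GENCODE 29 and log2 ratios of -1.28, -0.33 and -0.39, and AC093484.4 (chr17:16440479-16440952, minus strand), which lies within LRRC75A-AS1 (chr17:16438822-16478678, plus strand) on the other strand, had 0.06, 0.54 and -0.28.

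For antisense-named genes, the ratio was compared with that of the gene in the name. In 23 pairs with a sense gene at a locus of its own, the signs were the same in 10 pairs in RT4, 14 in RT112 and 14 in the SW780 line. LRRC75A-AS1, at 88.4 FPKM on average against 0.862 for LRRC75A, had negative ratios in all lines while those of LRRC75A were 2.91, 0.06 and 2.10. ZBED5-AS1 had 4.76 and 8.80 FPKM in RT4, 9.92 and 14.9 in RT112, and 14.7 and 21.8 in the SW780 line, and was higher with quisinostat in each line. Its log2 ratios of 0.89, 0.58 and 0.56 stood beside -0.28, -0.51 and 0.04 for ZBED5. SBF2-AS1, chosen after its values were seen, had 0.363 and 10.2 FPKM in RT4, 0.261 and 1.88 in RT112, and 0.384 and 0.481 in the SW780 line, while the ratios of SBF2 lay between -0.35 and -0.10. FAM83A-AS1, also chosen in this way, had ratios of 1.06, 0.08 and 2.98, beside 0.26, -0.14 and 2.62 for FAM83A.

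The other abundant antisense-named genes are given here beside their sense genes. PTOV1-AS1 had ratios of 0.15, -0.04 and 0.01, beside -0.78, 1.14 and -0.22 for PTOV1. OTUD6B-AS1 had 0.66, -0.16 and 0.31, beside 0.23, -0.76 and 0.22 for OTUD6B. SVIL-AS1, annotated as a pseudogene, had 0.79, 0.29 and 0.62, beside -0.50, 0.88 and -0.85 for SVIL, an actin-binding protein. NCBP2-AS2, annotated as protein-coding, had -0.97, -0.30 and -0.09, beside 0.33, -0.11 and 0.14 for NCBP2, a cap-binding protein. Its GC-corrected ratios were -0.01, -0.89 and 0.19. By position, 54 genes overlapped a protein-coding gene on the opposite strand that had a locus of its own, with the same sign in 31 pairs in RT4, 31 in RT112 and 37 in the SW780 line. In 32 pairs that start head to head within 1 kb, the signs were the same in 19, 15 and 15. Some antisense-named pairs are also in these sets, and the share of same signs among unrelated loci was not computed. SNHG1 starts beside SLC3A2, a subunit of amino acid transporters, with log2 ratios of 1.28, 0.06 and 0.34 beside -0.56, -0.81 and -0.69 for SNHG1.

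Levels of some of these genes differed between the libraries of the cell lines. The cell line term of limma, adjusted for treatment, passed an adjusted p of 0.05 for 19 of 239 genes (7.95%, against 5.96% of all loci). The number was 9 without RT4, 27 without RT112 and 10 without SW780. In this test the replicates of a line were its DMSO and quisinostat libraries, at a dose that differed between lines. The cell line p-values here and above therefore do not measure the spread between cultures of a line. H19, the imprinted RNA of the IGF2 locus, had the smallest value (adjusted p = 0.00766). It had 79.97 FPKM with DMSO and 42.0 with quisinostat in RT112 cells, 1.60 and 0.0195 in SW780 cells, and 0.0148 and 0.0237 in RT4 cells. The RT112 libraries were thus far above the other 4. LINC02154 had 13.7 and 30.6 FPKM in RT112, 0.657 and 5.21 in SW780, and 0 and 0.661 in RT4 cells (adjusted p = 0.0153), and was higher with quisinostat in each line. RHOXF1-AS1 had 24.5 and 30.2 FPKM in SW780 cells, 0.0332 and 3.31 in RT4 cells, and 0 and 0.194 in RT112 cells (adjusted p = 0.0215). The pseudogene AC011487.2 was low in RT112 cells, at 1.45 and 1.16 FPKM, against 59.8 and 29.1 in RT4 cells and 53.8 and 13.2 in SW780 cells (adjusted p = 0.0167).

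Some genes were expressed in a single line. Of the 264 genes, 8 (3.03%, against 1.18% of all loci) had at least 1 FPKM in both libraries of 1 line and under 0.1 FPKM in the other 4 libraries. Of these, 6 belonged to SW780, 1 to RT4 and 1 to RT112, beside 41, 55 and 23 of all loci in the same order. LINC00221 had 9.99 FPKM with DMSO and 12.1 with quisinostat in SW780 cells, and LINC01980 had 4.96 and 12.6, and both are listed at 0 in the 4 libraries of RT4 and RT112 (adjusted p = 0.0153 and 0.0346, limma F-test). The others, which fall outside the rule for named genes, were LINC01291, LINC02055, AC000032.1 and AL513318.2 in SW780, DPP10-AS1 in RT4 (1.56 and 4.25 FPKM) and AC006329.1 in RT112 cells (3.52 and 2.56 FPKM).

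**Figure D5:**
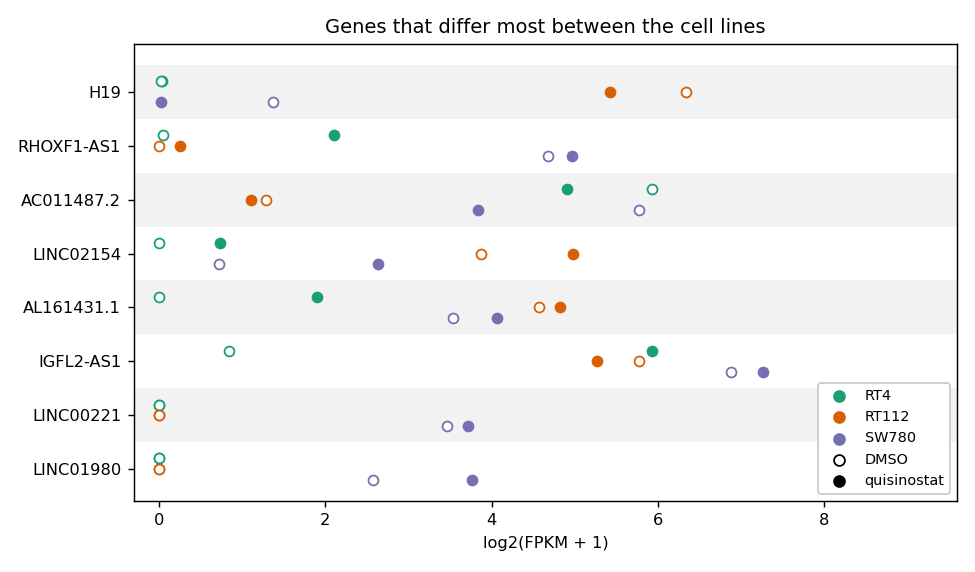
log2(FPKM + 1) (x axis) in each library for the 8 genes that differ most between the cell lines by their line means. Open circles are DMSO and filled circles quisinostat. H19 is high in RT112 cells, RHOXF1-AS1, LINC00221 and LINC01980 in SW780 cells, and AC011487.2 is low in RT112 cells.

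In RT4 cells, some genes were below 1 FPKM with DMSO and far above it with quisinostat. AL161431.1 had 0.00560 FPKM with DMSO and 2.74 with quisinostat in RT4 cells, against 22.8 and 27.2 in RT112 and 10.6 and 15.8 in the SW780 line. IGFL2-AS1 had 0.790 and 59.8 FPKM in RT4, 53.8 and 37.6 in RT112, and 117 and 153 in the SW780 line. Its RT4 DMSO library was thus the only low one of 6. LINC01088 had 0.317 and 20.4 FPKM in RT4 cells and no more than 0.241 in the other 4 libraries. The limma adjusted p for quisinostat of these 3 genes was 0.362, 0.495 and 0.525, and leaving out RT4 turned the log2 fold change of IGFL2-AS1 from 1.66 to -0.06. H19, by contrast, was lower with quisinostat in the 2 lines that express it, with log2 ratios of -0.93 in RT112 and -6.35 in the SW780 line.

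Opposite responses in different lines occurred for 16 genes, with a log2 ratio above 1 in 1 line and below -1 in another (6.99%, against 5.97% of all loci). Among the genes named by rule these were SNHG17, LINC01088, AC011330.1 and CTBP1-AS2. CTBP1-AS2, which RefSeq names CTBP1-DT as a divergent transcript of the corepressor gene CTBP1, had 3.34 and 0.206 FPKM in RT4 cells, 0.248 and 2.78 in RT112 cells, and 0.357 and 0.169 in SW780 cells. Its log2 ratios of -4.02, 3.49 and -1.08 stood beside -2.32, 0.85 and -1.69 for CTBP1. AC011330.1, a pseudogene with 99.969% identity to PPIP5K1, had 0.323 and 5.45 FPKM in RT4 cells, 2.21 and 0.282 in RT112 cells, and 0.547 and 0.248 in SW780 cells. The levels of both are near 1 FPKM.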

How the data were processed

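RNA of RT4, RT112 and SW780 cells was sequenced after 2 days with DMSO or quisinostat (50, 10 and 25 nM), with 1 library per line and treatment. The authors made stranded libraries from polyadenylated RNA and, by their processing notes and methods, used CASAVA 1.8.2, Trimmomatic 0.36, HISAT2 2.2.1, SAMtools 1.15.1, StringTie 2.2.1 and Ballgown on GRCh38. The deposited values are FPKM per assembled locus. The annotation release, the strand setting and the treatment of reads that fit several places are not given in the sources used here. Depth is unknown, and no interval or detection limit that needs counts was computed.

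One value per locus was used, and loci with more than 1 gene name were left out of the set. Log2 ratios had no pseudocount and were taken at the 9112 loci above 0 in all libraries, with limits of 0.3 and 1. Differences were tested with limma 3.58.1 in R 4.3.3 on log2(FPKM + 1) at the 9430 loci whose mean FPKM was 1 or more. The model blocked on cell line, used a variance trend, and adjusted p-values by Benjamini-Hochberg over these loci. The model was run on simulated data with planted changes that were the same in each line. Responses that differ between lines were not simulated. A fold change on this scale understates the change of low genes. The quisinostat and DMSO libraries are paired because they come from the same cell line, and their deviations from the group means were correlated (0.598 in RT4, 0.500 in RT112 and 0.726 in SW780). Gene kind, place and GC content came from GENCODE 29, and promoter windows from RefSeq (GRCh38.p14). Copies were found with BLAST 2.17.0. Ratios were corrected for GC content by a lowess curve with a span of 0.3. Python 3.11.15 was used for the rest.

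The members and lists were chosen with earlier results of these data known. Named by rule were the 7 listed RNAs present, every SNHG gene, the 8 genes highest and the 8 lowest by the weakest ratio (mean FPKM of at least 1), the 8 of highest mean FPKM, the 8 of largest line difference, the 6 of largest spread of ratio, and the 8 most abundant antisense-named genes with a sense gene. One gene named by this rule is not reported here. Alternatives were pseudocounts of 0.1 and 1, no filter and other filters, centring, GC correction, quantile normalization, limits of 0.5 and 1, no block, each line left out, and, added after the data were seen, long noncoding RNAs of GENCODE 29 alone and the summed share without AC011603.2.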

Additional observations from a re-analysis of the deposited data

Results flagged for a closer look

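In 4 genes named by rule, the log2 FPKM ratio (quisinostat over DMSO) was above 1 in a line and below -1 in another. With 1 library per line and treatment, this difference between lines was not tested. The gap between the highest and the lowest of the 3 log2 ratios was 8.86 for LINC01088 (6.01 in RT4, -2.85 in RT112 and 2.13 in the SW780 line), and only its RT4 quisinostat library was above 1 FPKM. The gap was 7.5 for CTBP1-AS2 (-4.02, 3.49 and -1.08 in the same order) and 7.05 for AC011330.1 (4.08, -2.97 and -1.14), a pseudogene whose source gene PPIP5K1 had 1.13, 0.45 and -0.09. It was 3.42 for SNHG17 (-0.82, -1.93 and 1.49), whose SW780 libraries were both under 0.4 FPKM.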

How the results depend on the processing

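The count of genes at an adjusted p under 0.05 was 0 in either direction under each alternative run, except that leaving out lines gave 0 to 1 lower (AC006064.4, without RT112). At an unadjusted p under 0.05, the main 18 higher and 12 lower became 4 and 8 at a mean FPKM of at least 5. They became 11 and 23 with quantile normalization, and 4 and 3 with no replicate block, which ignores the pairing by cell line. Over all loci the main 913 higher and 392 lower became 576 and 319, 638 and 570, and 314 and 106 in that order. Leaving out lines gave 3 to 25 higher and 4 to 16 lower, beside 431 to 1260 and 85 to 924 of all loci. The 19 genes that differed between lines became 11 at a mean FPKM of at least 5 (81 genes tested) and 9 to 27 without a line. The 27 genes above 0.3 in all 3 lines became 9 at a limit of 1, and 35 to 56 with a line left out. The 17 below -0.3 became 8 at a limit of 0.5, 1 at a limit of 1, 8 among the 154 long noncoding RNAs, and 33 to 41 with a line left out, where fewer lines had to agree. The medians of the long noncoding RNAs alone were 0.262 (RT4), 0.0459 (RT112) and 0.108 (SW780), against 0.13, -0.10 and -0.01 for all members. Without AC011603.2, an alternative added after the data were seen, the share of summed FPKM held by the members in SW780 cells differed between quisinostat and DMSO by 0.0285 percentage points in place of -0.0724. The other alternatives kept the counts within 1.5 times and the medians within the spread between lines (0.112).

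Of 54 named genes with a limma value, 46 kept the sign of their log2 fold change. Quantile normalization turned PTOV1-AS1 to -0.084 and SNHG18 to -0.052. Leaving out a line gave -0.012 to 0.069 for PTOV1-AS1, -0.13 to 0.32 for SNHG18, -0.94 to 0.055 for AC011603.2, -0.059 to 2.74 for IGFL2-AS1, -0.11 to 0.29 for AC093484.4, -0.17 to 0.033 for TUG1, -0.40 to 0.14 for SNHG16 and -0.30 to 0.13 for MALAT1. Depth is unknown, so the precision of low values is too.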
